A study of Mus musculus with 36 samples.

Results

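Igf1, Igfbp4 and Socs2 are 3 genes of the insulin-like growth factor (IGF) axis, chosen by gene symbol, and every listed peak annotated to them was taken from the authors' comparisons of histone marks in CSE knockout and wild-type smooth muscle cells. They hold 6 of the 13958 listed peaks: 5 of 8115 for H3K9ac, 1 of 469 for H3K4me3 and 0 of 5374 for H3K9me3. The 3 genes are among 9822 with a listed peak of any mark. They were picked because of their H3K9ac values in this comparison, so those values are given below as a description and not as a test.

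The knockout group was primary aortic smooth muscle cells of mice lacking CSE (cystathionine gamma-lyase, encoded by Cth) in the whole body, and the other group was the same cells of wild-type C57BL/6N mice. Both groups received 1 µM angiotensin II, a vasoconstrictor peptide, for 24 hours, so no untreated cells stand beside them, and the knockout was not limited to smooth muscle. Chromatin immunoprecipitation with sequencing (ChIP-seq) gave 3 immunoprecipitated and 3 input libraries per genotype and mark, 36 in all, and the labels do not say whether these came from separate animals or cultures. The values are the authors' log2 mean normalised reads per genotype, with no value per library, so the depth of each library and the spread between replicates are unknown here and the error of a difference is carried only by the authors' p-value and FDR (the p-value adjusted for the number of peaks tested).

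IGF1 is a secreted growth factor that signals through the receptor IGF1R and, in smooth muscle, is known to promote growth and survival. IGFBP4 is a secreted protein that binds IGFs and keeps them from the receptor until a protease cleaves it. SOCS2 is an intracellular suppressor that is induced by growth hormone through STAT5 and limits growth hormone signalling, which itself drives Igf1 transcription. H3K9ac and H3K4me3 are histone marks found at active promoters, and H3K9me3 is found in heterochromatin.

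H3K9ac in the knockout was lower at 4 of the 5 peaks, each at an FDR under 0.05 by the authors' deposited table. These were the start sites of Igf1 and Socs2, a peak annotated to the 3' UTR of Socs2 and a peak just upstream of Igfbp4. The remaining peak, on the start site of Igfbp4, had a value above that of wild type. Of all listed H3K9ac peaks 77.2% had lower and 22.8% higher values in the knockout, and 12.6% were lower at an FDR under 0.05. Nothing is read from the members' counts against these shares, because the genes were chosen from this comparison.

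**Figure D1:**
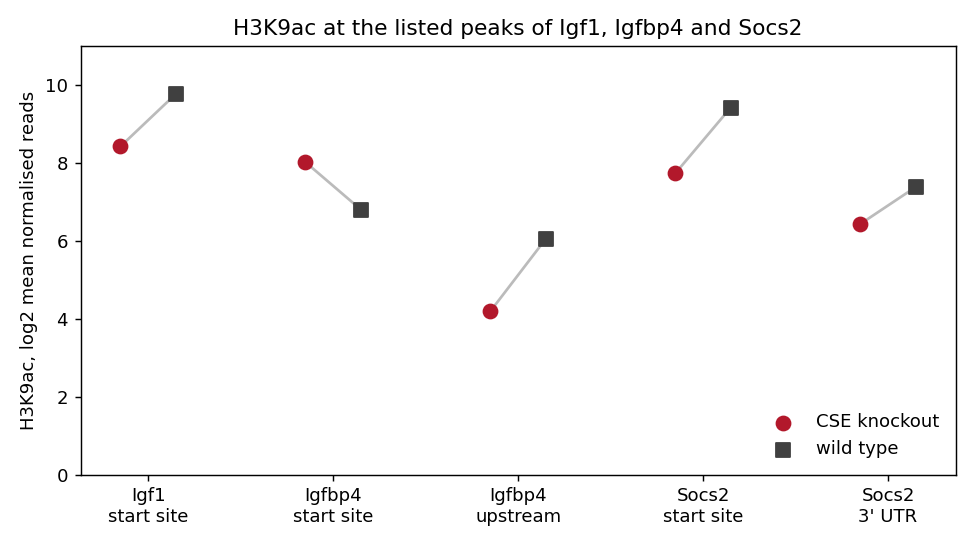
H3K9ac at the 5 listed peaks of the 3 genes, as log2 mean normalised reads (vertical axis) for CSE knockout (red circles) and wild type (grey squares), joined for each peak; the points are the authors' group values and carry no error bars. The knockout point lies below the wild-type point at 4 peaks and above it at the Igfbp4 start site (8.02 against 6.80).

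Igf1 (ENSMUSG00000020053) had 1 H3K9ac peak, at chr10:87858375-87861599, which covered its annotated start site from 693 bases upstream to 2531 bases downstream. It did not cover the first base of the RefSeq gene, 110 bases from the peak. Its log2 mean was 8.42 in knockout and 9.77 in wild-type cells, which is 343 against 873 normalised reads, by the authors' deposited table. H3K9ac there was 2.55-fold lower in the knockout (log2 fold −1.35, p 0.000107, FDR 0.00655, by the authors' deposited table). The peak was among the strongest and broadest listed, at the 98.2 percentile of mean signal and the 97.5 percentile of width over all listed H3K9ac peaks. Folds at other listed peaks of like signal were mostly smaller. Of 138 other lower promoter peaks whose log2 mean signal lay within 0.5 of this peak, 10 had a larger fold, and their median log2 fold was −0.905. Igf1, like Socs2 and Igfbp4 below, was chosen for its values here, so such ranks are a description and not a test.

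Next to this peak, separated by 1142 bases, lay a peak annotated to the start site of Igf1os, the antisense RNA gene that runs from within Igf1 in the opposite direction. It covered bases 3674 to 5004 downstream of the Igf1 start site (chr10:87862742-87864072). The log2 mean at Igf1os was 5.86 in knockout and 6.97 in wild-type cells, a log2 fold of −1.11 with an FDR of 0.0161 by the authors' deposited table. The Igf1 peak held 5.90 times the reads of the Igf1os peak in knockout and 6.96 times in wild-type cells, and the folds of the 2 peaks, 2.55 and 2.16, were not tested against each other. ChIP-seq reads carry no transcript strand, so neither peak can be assigned to Igf1 or Igf1os by its reads.

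The RefSeq promoter window of Igf1 lies at another start site than the one the authors' table uses, and falls wholly inside the lower H3K9ac peak. Its 250 bases before that start site (chr10:87860861-87861110, + strand, GRCm38.p6, from RefSeq) are shown because they are the Igf1 sequence under the lower peak. The only match found is in capitals. It is to TGANTCA, the pattern searched for AP-1, in which N stands for any base, and the match has A there. Whether AP-1 binds it was not tested.
Igf1: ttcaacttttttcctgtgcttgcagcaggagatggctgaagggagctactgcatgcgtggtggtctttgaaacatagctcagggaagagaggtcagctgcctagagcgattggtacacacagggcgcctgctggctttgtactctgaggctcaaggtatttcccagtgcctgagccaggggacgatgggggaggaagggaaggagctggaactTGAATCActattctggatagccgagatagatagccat
The match begins 37 bases before the RefSeq start site, and a match to the same pattern, with any base at N, stood in 6.75% of the 32851 RefSeq windows of this length. The window held 5 CpG sites and 52.8% G and C, near the medians of all windows (6 and 52.4%).

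Socs2 (ENSMUSG00000020027) lies on the same chromosome as Igf1, 7.55 Mb away, on the minus strand. Its promoter peak for H3K9ac, at chr10:95415159-95417854, reached from 2370 bases upstream to 325 bases downstream of the start site in the authors' table. The log2 mean there was 7.73 in knockout and 9.42 in wild-type cells, or 212 against 685 normalised reads, by the authors' deposited table. Socs2 H3K9ac at this peak was 3.23-fold lower in the knockout (log2 fold −1.69, p 0.000101, FDR 0.00625, by the authors' deposited table). No H3K9ac peak is listed with a p under 0.0001, so the place of this p among all peaks is unknown. Of 190 other lower promoter peaks with a log2 mean signal within 0.5 of that of this peak, 2 had a larger fold. This rank is no test either, because Socs2 was chosen for its values here. The peak also covers the first base of the RefSeq gene, 1837 bases upstream of the authors' start site.

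A second H3K9ac peak of Socs2, at chr10:95388399-95389685, was annotated to its 3' UTR and lay 25.5 kb from the first. Its log2 mean was 6.43 in knockout and 7.38 in wild-type cells, or 86.2 against 167 normalised reads, by the authors' deposited table. Socs2 was 1.93-fold lower at this 3' peak (log2 fold −0.95, FDR 0.0404, by the authors' deposited table). The promoter peak therefore held 2.46 times the reads of the 3' peak in knockout and 4.11 times in wild-type cells. Whether both folds differ could not be tested without values per library.

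Socs2 was also the only one of the 3 genes with an H3K4me3 peak in the authors' comparison (chr10:95415223-95417735). That peak lay wholly within the H3K9ac promoter peak and spanned 93.2% of it. The H3K4me3 table gives no signal, fold, p or direction, so it says only that the region was selected for this mark. Igf1 and Igfbp4 had no listed H3K4me3 peak.

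Igfbp4 (ENSMUSG00000017493), on chromosome 11, had 2 H3K9ac peaks that were only 86 bases apart and went opposite ways. The upstream peak, chr11:99039958-99040546, ended 698 bases before the annotated start site. Its log2 mean was 4.19 in knockout and 6.05 in wild-type cells, or 18.3 against 66.3 normalised reads, and Igfbp4 was 3.63-fold lower there (log2 fold −1.86, FDR 0.0137, by the authors' deposited table). Of 713 other lower promoter peaks with a log2 mean signal within 0.5 of it, 16 had a larger fold. This peak covered the first base of the RefSeq gene extent of Igfbp4, 1239 bases upstream of the authors' start site.

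The other Igfbp4 peak, chr11:99040633-99042355, covered the start site from 611 bases upstream to 1111 bases downstream. Its log2 mean was 8.02 in knockout and 6.80 in wild-type cells, or 260 against 111 normalised reads, a log2 fold of 1.22 by the authors' deposited table. Its p was 0.00228 and its FDR 0.0550 by the authors' deposited table, just outside 0.05, so an increase at the Igfbp4 start site did not pass at that level. Of 83 other higher promoter peaks of like signal, 20 had a larger fold. The upstream peak held 6.57% of the reads of both peaks in knockout and 37.3% in wild-type cells.

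**Figure D2:**
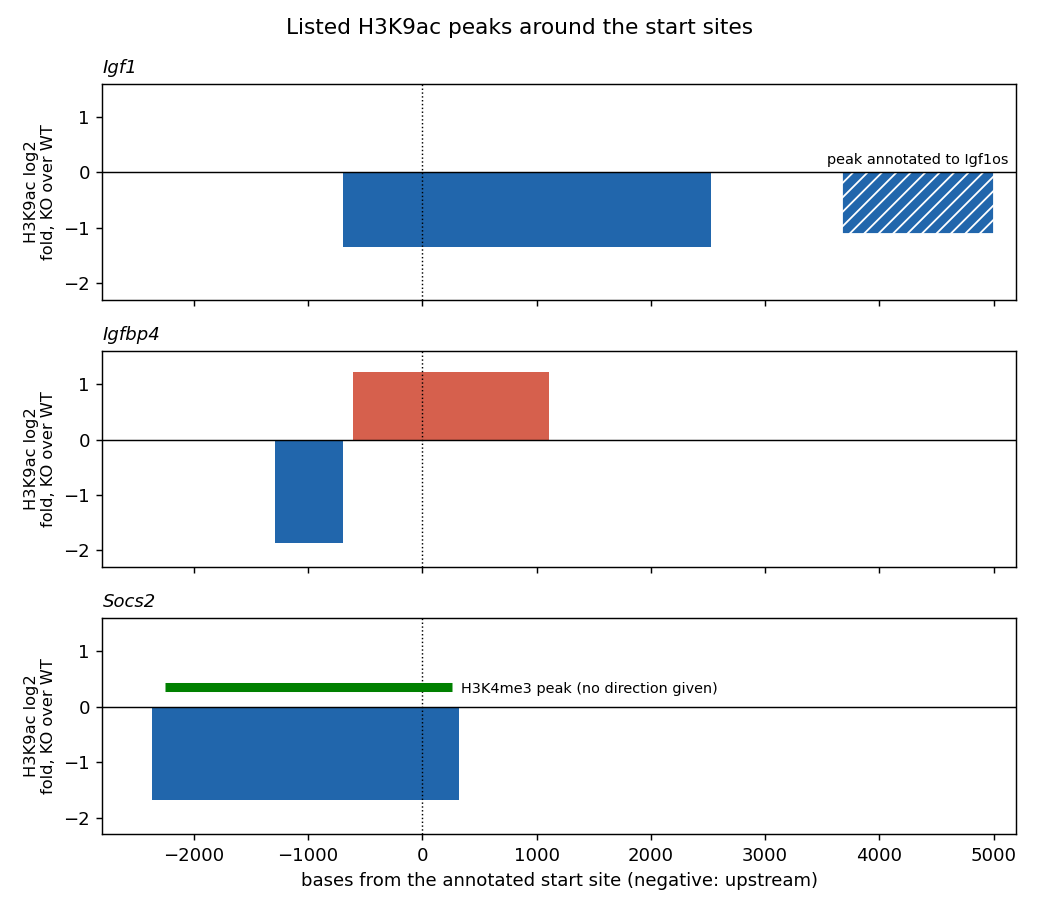
Listed H3K9ac peaks around the start sites of Igf1, Igfbp4 and Socs2: the horizontal axis is the distance in bases from the start site in the authors' table, each bar spans a peak, and its height is the log2 fold of knockout over wild type (blue lower, red higher); the hatched bar is the Igf1os peak and the green line the H3K4me3 peak of Socs2. At Igfbp4 a bar of −1.86 stands 86 bases from one of 1.22, while single broad bars of −1.35 and −1.69 cover the start sites of Igf1 and Socs2.

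Opposite values so close together were uncommon in the H3K9ac table. Among 85 pairs of neighbouring listed peaks at most 100 bases apart, 4 pairs had opposite signs, and Igfbp4 was 1 of these 4. The others were at Snora7a, Msmo1 and Ccdc68, and at each of them both peaks had an FDR over 0.05 by the authors' deposited table. At Igfbp4 only the upstream peak had an FDR under 0.05, so in none of the 4 pairs did both peaks pass. Igfbp4 was chosen from these values and the pairs were named after their values were seen, so this is a description. Of 335 pairs that were over 100 and at most 500 bases apart, 0 had opposite signs. By gene, 46 of 450 genes with 2 or more listed promoter peaks had both signs, or 10.2%. Whether the 2 Igfbp4 regions are separate elements or 1 region that peak calling divided was not tested.

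The Igfbp4 promoter window of RefSeq shares its start site with the authors' table and falls wholly inside the start-site peak, outside the upstream one. Its 250 bases (chr11:99040994-99041243, + strand, GRCm38.p6, from RefSeq) are shown for contrast with those of Igf1, with the only match found, to TATAAA, in capitals.
Igfbp4: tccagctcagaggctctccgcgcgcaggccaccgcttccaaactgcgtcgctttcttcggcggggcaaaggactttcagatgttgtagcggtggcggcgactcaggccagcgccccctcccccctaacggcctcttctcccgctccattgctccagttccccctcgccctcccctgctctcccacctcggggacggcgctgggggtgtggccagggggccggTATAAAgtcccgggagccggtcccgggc
The match begins 28 bases before the start site, and TATAAA stood on either strand of 12.4% of all windows. This window was rich in CpG, with 22 CpG sites, more than 85.2% of all windows, and 69.2% G and C. Besides the AP-1 and TATA motifs, 5 others were searched on both strands of these windows. The STAT motif TTCNNNGAA stood in 7.02% of all windows. The Sp motif, written GGGCGG, stood in 32.7% of them. The forkhead motif searched was TGTTTAC, found in 3.17% of all windows. For GATA factors the letters were GATAAG, present in 6.55%. The CArG box of SRF was present in 1.47%. None of these 5 was found in either window, and the Igf1 window held no TATA match and the Igfbp4 window no AP-1 match. Neither capitalised match overlaps one of another motif.

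**Figure D3:**
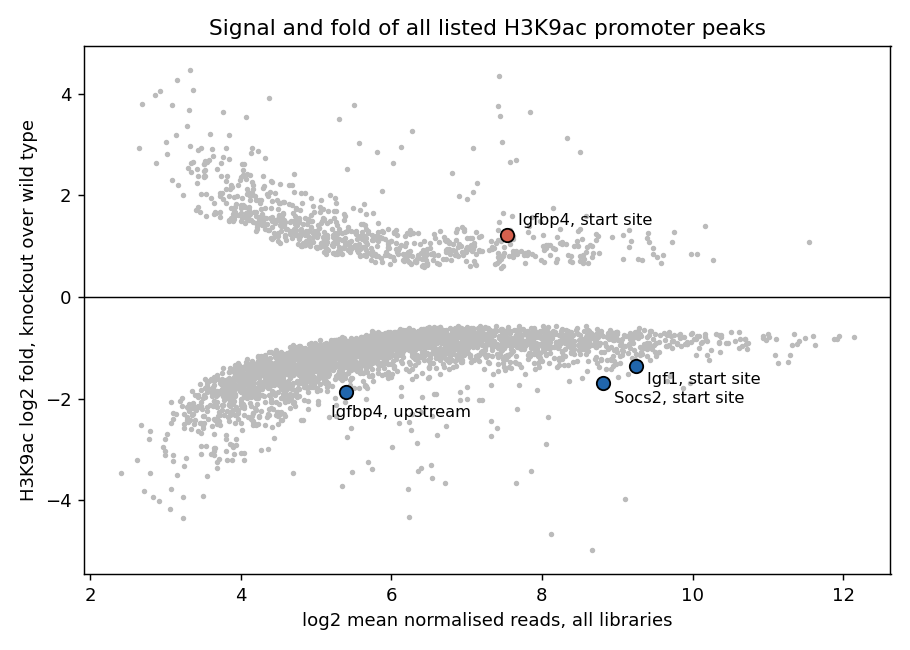
Every listed H3K9ac promoter peak by log2 mean normalised reads over all libraries (horizontal axis) and log2 fold of knockout over wild type (vertical axis), with the peaks of the 3 genes outlined; the empty band around 0 is the authors' selection of peaks by p. Igf1 and Socs2 lie at log2 means of 9.25 and 8.81, below most lower peaks of like signal, while the upstream Igfbp4 peak lies at 5.40. The 3 genes were chosen for their values here, so these positions are a description.

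On chromosome 10, which holds Igf1 and Socs2, 89.4% of listed H3K9ac peaks had lower values in the knockout, and on chromosome 11, which holds Igfbp4, 52.5% had. Within 250 kb of Igf1 the Igf1os peak was the only other listed H3K9ac peak. Around Socs2 there were 2, annotated to Gm48880 (118 kb away, log2 fold −2.35, FDR 0.148) and Mir3058 (140 kb away, log2 fold −1.71, FDR 0.303, both by the authors' deposited table). An H3K4me3 peak at the start site of Ube2n, which encodes a ubiquitin-conjugating enzyme, lay 96.9 kb from Socs2.

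Igfbp4 stood beside a run of peaks with positive folds. Between 25.8 and 71.9 kb downstream of the gene lay 7 listed H3K9ac peaks, 6 annotated to Tns4 (tensin 4, a focal adhesion protein) and 1 to Ccr7 (a chemokine receptor), and all 7 had higher values in the knockout. Their log2 folds ranged from 0.95 to 2.07, and 3 of the 7 had an FDR under 0.05 by the authors' deposited table. The largest, annotated to Tns4 and 48.0 kb away, had a log2 mean of 5.39 in knockout and 3.32 in wild-type cells, a log2 fold of 2.07 with an FDR of 0.0260 by the authors' deposited table. The Ccr7 peak had a log2 mean of 7.38 in knockout and 6.43 in wild-type cells (FDR 0.0380, by the authors' deposited table). On the other side of Igfbp4, the peak at Rara (retinoic acid receptor alpha), 68.0 kb upstream, had a log2 fold of −0.97 (FDR 0.118, by the authors' deposited table). Farther out on the same side as the run, 174 kb downstream, the peak at Smarce1 (a chromatin remodelling subunit) had one of −1.36 (FDR 0.277, by the authors' deposited table). Neighbouring peaks are not independent, and most of the 7 lie between genes, named only for the nearest one.

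**Figure D4:**
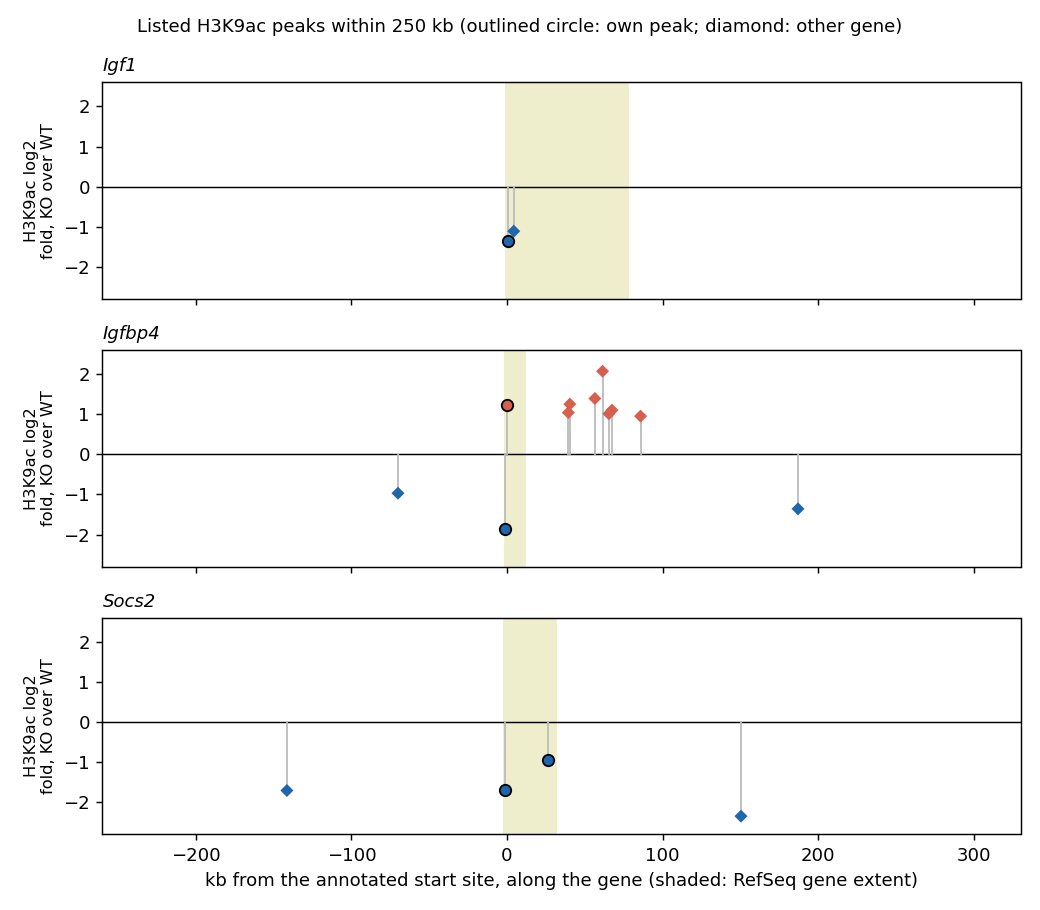
Listed H3K9ac peaks within 250 kb of Igf1, Igfbp4 and Socs2: distance in kb along each gene from its start site (horizontal axis) against log2 fold of knockout over wild type (vertical axis), with the RefSeq gene extent shaded, the genes' own peaks as outlined circles and peaks of other genes as diamonds. The 7 red diamonds downstream of Igfbp4 range from 0.95 to 2.07, while all listed peaks in the Igf1 and Socs2 panels are negative.

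H3K9me3 had no listed peak at any of the 3 genes or within 250 kb of them. The nearest were 460 kb from Igf1 (log2 fold 3.51), 387 kb from Igfbp4 at Gsdma2 (log2 fold 2.56) and 324 kb from Socs2 (log2 fold −2.93), each with an FDR of 1 by the authors' deposited table.

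The rest of the axis was read from 8 lists of 79 genes in all. Of these, 27 had a listed H3K9ac peak, and by the peak of smallest p 19 had lower and 8 higher values in the knockout, against 75.8% lower over all 5911 listed genes. The median log2 fold of the 27 genes was −1.18, and that of all listed genes −1.01. An FDR under 0.05 was reached by 11 of the 27 by the authors' deposited table, against 20.7% of all listed genes. Without Igf1, Igfbp4 and Socs2, 16 of 24 genes had lower values, the median log2 fold was −0.90 and 8 of the 24 had an FDR under 0.05 by the authors' deposited table. By promoter peaks, 15 of 17 had lower values, against 78.1% over all genes with a listed promoter peak, and 12 of 14 without the 3 genes, 3 of the 14 at an FDR under 0.05. The share of axis genes with lower values was thus below that of all listed genes by the peak of smallest p and above it by promoter peaks. Most of the 27 genes did not pass the authors' corrected test. The lists were chosen with earlier results of these data known, so nothing is read from these shares.

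Among ligands and receptors, Igf1r, the receptor for IGF1, was the other listed gene of 7. It had 8 H3K9ac peaks, all in introns and all with negative log2 folds between −1.38 and −0.75, and 3 of the 8 had an FDR under 0.05 by the authors' deposited table. The Igf1r peak of smallest p had a log2 mean of 5.00 in knockout and 6.29 in wild-type cells (log2 fold −1.29, FDR 0.0208, by the authors' deposited table).

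Of the IGF-binding proteins and the acid-labile subunit, 5 of 9 were listed. Igfbp5, which is abundant in vascular smooth muscle, had a promoter-flank log2 mean of 6.19 in knockout and 7.11 in wild-type cells and was lower (log2 fold −0.92, FDR 0.0432, by the authors' deposited table). Igfbp3, the main IGF carrier in serum together with Igfals, had a log2 mean of 7.47 in knockout and 6.30 in wild-type cells at its start site. Its FDR was 0.109 by the authors' deposited table, so this did not pass. Igfbp2 (log2 fold −3.11, FDR 0.0663) and Igfals (log2 fold −1.22, FDR 0.116) did not pass either by the authors' deposited table, and the Igfbp2 value rests on a knockout log2 mean of 1.37. Like Igfbp4, Igfbp3 thus had a positive value over its start site at an FDR above 0.05.

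Among proteases that cleave IGF-binding proteins, Htra1 had 4 peaks, all with negative folds. An intronic peak of Htra1 had a log2 mean of 5.16 in knockout and 6.43 in wild-type cells and was lower (FDR 0.0339), while its promoter peak had a log2 fold of −0.81 (FDR 0.318, both by the authors' deposited table). Adam28 was lower at an intergenic peak (log2 fold −3.35, FDR 0.0266 by the authors' deposited table), at a knockout log2 mean of only 0.94.

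In the SOCS family, 4 of 8 genes were listed. Cish, which like Socs2 is known as a STAT5 target, had 2 promoter peaks with negative folds. At its start site Cish had a log2 mean of 9.47 in knockout and 10.35 in wild-type cells (log2 fold −0.88, FDR 0.133, by the authors' deposited table). Socs3 (log2 fold 1.21, FDR 0.173) and Socs4 (log2 fold 1.46, FDR 0.287) had positive values at non-promoter peaks by the authors' deposited table. Among the 4 listed SOCS genes, Socs2 was therefore the only one with an FDR under 0.05 at its peak of smallest p. Of 10 genes of the growth hormone and STAT5 arm, Ghr, Jak2, Stat5a and Stat5b among them, 0 had a listed H3K9ac peak. A gene that is not listed may still carry the mark or differ, since no p under 0.0001 is listed.

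The largest listed fold of the axis was at Igf2bp1, an RNA-binding protein named for binding Igf2 mRNA. Its promoter peak had a log2 mean of 4.64 in knockout and 9.62 in wild-type cells. Its log2 fold of −4.98 was the lowest of the listed H3K9ac peaks (31.6-fold lower, FDR 0.0201, by the authors' deposited table). Igf2bp3, of the same family, had a log2 mean of 8.72 in knockout and 10.28 in wild-type cells at its start site and was 2.95-fold lower (FDR 0.0163, by the authors' deposited table). All 4 Igf2bp3 peaks had negative folds. Of the 79 axis genes 6 had a listed H3K4me3 peak, 4 of them at promoters: Socs2, Igf2bp1, Igf2bp3 and Rheb, with Igf1r in an intron and Irs1 in its 3' UTR. At Socs2, Igf2bp1 and Igf2bp3 it overlapped a lower H3K9ac peak, and at the other 3 genes it overlapped no listed one.

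Among substrates and adaptors, 4 of 11 genes were listed. Ptpn1, a phosphatase that acts on the insulin receptor, had 3 peaks, 2 higher and 1 lower. Its peak of smallest p, intergenic, was higher, with a log2 mean of 5.12 in knockout and 2.65 in wild-type cells (FDR 0.0310 by the authors' deposited table). Its peak of strongest signal, also intergenic, had a log2 mean of 6.42 in knockout and 7.21 in wild-type cells (log2 fold −0.79, FDR 0.14, by the authors' deposited table). Grb2, an adaptor that links receptors to RAS, had 2 peaks of opposite sign. Its intronic peak was higher, with a log2 mean of 6.04 in knockout and 4.67 in wild-type cells (FDR 0.0119 by the authors' deposited table). Ptpn11 (log2 fold −1.52), Grb2 (log2 fold −1.25) and Grb14 (log2 fold −0.76) had promoter peaks with an FDR over 0.05 by the authors' deposited table. In the PI3K, AKT, FOXO and mTOR arm 8 of 24 genes were listed and 0 reached an FDR under 0.05 by the authors' deposited table. An unadjusted p under 0.05 was the condition for any peak to be listed. By smallest p the first 6 were Gsk3b (log2 fold 2.25), Akt1 (−1.74), Pik3ca (1.78), Foxo3 (−1.18), Foxo1 (−0.66) and Tsc2 (−1.26), as log2 folds of the authors' deposited table. For H3K9me3, 2 of the 79 genes were listed, Prlr (log2 fold −2.82) and Igf2bp2 (log2 fold −2.64), both with an FDR of 1 by the authors' deposited table, while 39.6% of all 3951 listed H3K9me3 genes had lower values.

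**Figure D5:**
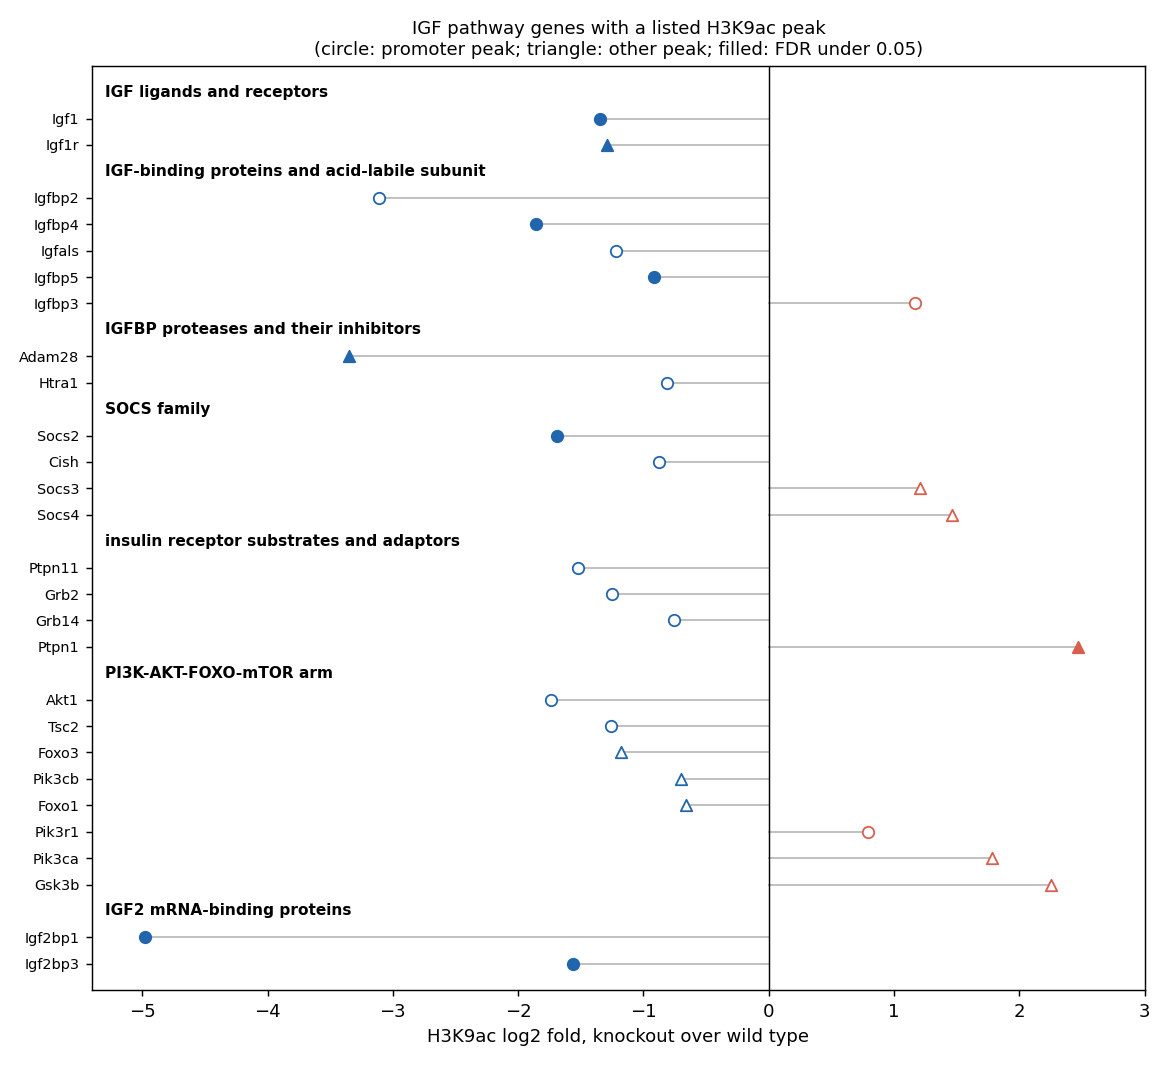
H3K9ac log2 fold of knockout over wild type (horizontal axis) for the 27 listed genes of the axis, grouped by list, taken at the promoter peak of smallest p (circles) or, where a gene had none, at its peak of smallest p (triangles); filled symbols have an FDR under 0.05. On this choice of peak 20 genes lie left of 0 and 7 right of it, with Igf2bp1 at −4.98 and Ptpn1 at 2.47 as the ends.

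The deposited gene annotation gives no term common to all 3 genes. Igfbp4 and Socs2 shared "regulation of cell growth", which 16 H3K9ac-listed genes carry, 14 of them with lower values, and "regulation of growth", with 22 such genes, 16 with lower values. Igf1 and Socs2 shared "insulin-like growth factor receptor binding", with 4 such genes, 3 with lower values. Igf1 and Igfbp4 shared "positive regulation of insulin-like growth factor receptor signaling pathway", with 5 such genes, 3 with lower values, and "positive regulation of MAPK cascade", with 30 such genes, 20 with lower values. Over all listed genes 75.8% had lower values. Each count above includes the 2 genes that share the term, which were chosen for these values, so nothing is read from the counts. Igfbp4 itself had peaks of both signs. The remaining shared terms were extracellular region, extracellular space and cytoplasm.

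The genes with the most similar H3K9ac were sought among 2451 genes with a listed promoter peak, by the distance between their 2 group values on the log2 scale. Nearest to Igf1 were Cacna1c (an L-type calcium channel subunit; distance 0.112), Stxbp6 and H2ac14, with log2 folds of −1.20 to −1.11 and an FDR over 0.05 by the authors' deposited table. Nearest to Socs2 were Carmn (a smooth muscle long noncoding RNA; distance 0.222), Daam2 and Lmo7. Nearest to the upstream Igfbp4 peak were Entpd1 (an ATP-hydrolysing enzyme of the cell surface; distance 0.0854), Inpp5a and Aopep.

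Markers of smooth muscle and of other cell types were listed in the same comparison. Of 12 smooth muscle markers 9 had a listed H3K9ac peak, Acta2 (FDR 0.236), Tagln (FDR 0.0793) and Myocd (FDR 0.313) among them, by the authors' deposited table. Acta2 had 1 lower and 1 higher peak. By the peak of smallest p 8 of the 9 had lower values, against 75.8% of all listed genes. An FDR under 0.05 was reached by 3 of the 9 by the authors' deposited table, against 20.7% of all listed genes: Ldb3 (log2 fold −1.32) and Lmod1 (−1.23) were lower and Smtn (0.95) was higher. Myh11, Cnn1 and Mylk had no listed peak. Both listed leukocyte markers of 8, Cd14 (log2 mean 10.34 in knockout and 9.50 in wild-type cells) and Aif1 (6.05 and 5.32), had positive folds with an FDR over 0.05 by the authors' deposited table. Of the fibroblast markers 3 of 8 were listed (2 higher, 1 lower), and of the endothelial ones 2 of 8 (1 higher, 1 lower). Among these 5, the fibroblast marker Ly6a was higher in the knockout, with a log2 mean of 6.77 in knockout and 5.45 in wild-type cells (log2 fold 1.32, FDR 0.0240 by the authors' deposited table), and the other 4 had an FDR over 0.05. The part of cell composition in the IGF-axis values was not tested, and in bulk chromatin fewer marked cells and less mark per cell cannot be told apart.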

How the data were processed

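ChIP-seq of 3 marks was compared between CSE knockout and wild-type cells. The submitters' processing notes name CASAVA 1.4 and mm9, and no aligner, peak caller, normalisation or differential test is stated there. Per the file headers, the authors deposited for each selected H3K9ac and H3K9me3 peak the log2 mean normalised reads of each genotype, with the log2 fold change, the p-value and its FDR. The file titles name a p of 0.05, and no listed p is under 0.0001, so stronger peaks of these and other genes may be missing. Shares, ranks and extremes are therefore those of listed peaks only. Deposited distances to start sites could all be recomputed from peak and gene positions within 1 base, which does not show the build on which peaks were called. A 300-base RefSeq promoter window of GRCm38.p6 was overlapped by 48.0% of H3K4me3, 9.45% of H3K9ac and 1.54% of H3K9me3 peaks. Coordinates were read as GRCm38, though the processing notes name mm9. Their ends may be off by 1 base, the amount by which H3K9ac widths exceed them.

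Linear reads are 2 to the power of the log2 mean. Promoters are the authors' annotation, within 3 kb of a start site, and 2 of the 3 symbols, Igf1 and Igfbp4 but not Socs2, matched the RefSeq promoter table. Python 3.11.15, numpy 2.4.6, pandas 2.3.3 and matplotlib 3.10.9 were used, and the functions were tested on simulated data. Named are all peaks of the 3 genes, up to 6 genes per list by smallest p, the 3 genes nearest in both group values (predicted genes left out) and up to 6 neighbours within 250 kb; opposite pairs, markers and second peaks were named after their values were seen. The members and lists were chosen with earlier results of these data known, and a gene of the lists is left out of them and not reported here. The tests planned for values per library could not be run. Alternatives were a stricter p, FDR, fold and signal, other choices of peak and other distances.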

Additional observations from a re-analysis of the deposited data

How the results depend on the processing

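The sign at Igfbp4 depended on the peak: its log2 fold was −1.86 by the promoter peak of smallest p, 1.22 by that of largest signal and −0.32 as the mean over its peaks, while Igf1 stayed at −1.35 and Socs2 at −1.69, or −1.32 as a mean. The cause was not tested. At an FDR under 0.05, the genes' higher H3K9ac peaks numbered 0, against 1 without it, and the 4 lower peaks stayed 4. Axis genes with lower H3K9ac, 19 by the peak of smallest p, numbered 9 at an FDR under 0.05. Those with higher values, 8, numbered 2 by promoter peaks only, 5 at p under 0.01 and 2 at an FDR under 0.05. For H3K9me3 the 2 lower genes became 0 by promoter peaks only, at p under 0.01 and at an FDR under 0.05, since fewer peaks remain. Neighbouring H3K9ac peaks with lower values numbered 2 around Igfbp4 within 250 kb, 1 within 100 kb and 11 within 1000 kb, where those with higher values numbered 9. Around Socs2 lower neighbours numbered 2 within 250 kb, 0 within 100 kb and 4 within 1000 kb, and around Igf1 1 within 250 kb and 2 within 1000 kb. No paired analysis was possible because the tables hold no value per library. For the same reason no library could be left out, depth is unknown, and the normalisation, which can set the share of lower peaks, was not varied.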
